A study of Mus musculus with 4 samples.

Results

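Midbrain microglia, the resident macrophages of the brain, were taken as every cell that the deposited midbrain annotation calls MG. They numbered 1964 of 11630 midbrain cells, in a series of 21644 cells. The transgenic midbrain library held 806 of them and the wildtype midbrain library 1158. The series profiled single cells from midbrain and frontal cortex of Hua-Syn(A53T) transgenic mice, a strain used as a model of familial Parkinson disease, and of wildtype littermates labelled C57BL/6. All mice were 6 to 9 months old. Each of the 4 combinations of region and genotype is 1 library, described as drawn from a group of 3 mice, although the mouse number given is 3 for frontal cortex and 0 for midbrain. Cells are not tied to a mouse. The promoter of the transgene is not given in the sources used here, and the tissue was dissociated with a protocol aimed at glial and vascular cells.

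With 1 library per group there was no replicate check and no test of genotype. Levels are unique molecular identifiers (UMIs) scaled to counts per 1000000 UMIs of all microglia in a library (CPM). Differences are log2 ratios of transgenic over wildtype, with a 95% interval that covers counting error only and not the spread between mice. Among genes reaching 20 CPM in at least 1 library, a gene counted as higher or lower when the ratio passed 1.5 times. Members of gene lists were counted at 1.2 times, with at least 20 UMIs and an interval that left out 0. Fewer cells of a subtype and less RNA per cell cannot be told apart in these sums.

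Microglia enter the brain from the embryonic yolk sac and maintain themselves there. They survey tissue through receptors such as P2ry12, which senses purine nucleotides, and Cx3cr1, which binds the neuronal chemokine fractalkine, and they clear debris with lysosomal hydrolases. When challenged they switch on immediate early genes, chemokines and heat shock chaperones, and in degenerating tissue they raise Apoe, Lpl, Cst7 and related genes.

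The label matched its markers. All 10 microglia markers were higher in these cells than in any of the other cell types of the midbrain annotation. P2ry12 stood at 1979 CPM in the microglia of both libraries and at 148 CPM in border macrophages, its next highest cell type. Tmem119, a microglial surface protein, stood at 1131 CPM and Cx3cr1, the fractalkine receptor, at 4493 CPM. The 10 border macrophage markers summed to 167 CPM in microglia and 7329 CPM in border macrophages. Chil3, Ltf, Camp, Cd3g and Ly6d, markers of monocytes, neutrophils, T cells and B cells, had no UMI in these microglia, while other members of those lists did. The 8 B cell markers summed to 309 CPM in microglia. Most of that was Ighm, at 286 CPM, which was higher in microglia than in any other cell type, with border macrophages next at 180 CPM.

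The microglia held 6483156 UMIs in the transgenic library and 7658431 in the wildtype library. The median cell had 8317.5 UMIs and 2946.5 genes in the transgenic library, against 6749 UMIs and 2586 genes in the wildtype library. Mitochondrial UMIs took 2.03% of the median transgenic cell and 2.18% of the median wildtype cell. A UMI of 4 summed Y-linked genes occurred in 73.2% of transgenic microglia and in 70.6% of wildtype microglia, and an Xist UMI in 1 transgenic and 0 wildtype microglia. No barcode was shared between the microglia of the libraries.

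RNA of other cell types was unevenly spread over the libraries. The 15 astrocyte markers summed to 540 CPM in transgenic and 1106 CPM in wildtype microglia, against 26017 CPM in midbrain astrocytes. The 10 endothelial markers summed to 570 CPM in transgenic and 939 CPM in wildtype microglia, against 36141 CPM in endothelial cells. Choroid plexus and ependymal markers, led by Ttr, summed to 2733 CPM in transgenic and 4922 CPM in wildtype microglia. The astrocyte signal was concentrated in few cells. At least 20 astrocyte-marker UMIs were found in 16 of 806 transgenic cells (1.99%, exact interval 1.14 to 3.20%) and in 40 of 1158 wildtype cells (3.45%, 2.48 to 4.67%). Those cells held 27.5% of the astrocyte-marker UMIs in the transgenic library and 61.0% in the wildtype library. For endothelial markers such cells numbered 4 in the transgenic library and 16 in the wildtype library, which held 6.52% of the endothelial-marker UMIs in the transgenic and 37.8% in the wildtype library. Results are therefore also given for the 788 transgenic and 1107 wildtype cells with under 20 UMIs of each marker set, called low-marker microglia below, a selection made after these counts were seen.

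Transcripts of the transgene are not analysed here, so the genotype labels were not checked against it. Prnp, the prion protein gene, had 57.5 CPM in transgenic and 59.2 CPM in wildtype microglia (-0.04, -0.24 to 0.16). In the low-marker microglia Prnp had 45 CPM in the transgenic and 23 CPM in the wildtype library (0.97), and astrocytes carried 1512 CPM in the wildtype library. In frontal cortex microglia Prnp had a log2 ratio of 2.34.

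The deposited annotation spreads the microglia over 4 clusters. Cluster 2 held 489 transgenic cells (60.7%, 57.2 to 64.1%) and 728 wildtype cells (62.9%, 60.01 to 65.7%). Cluster 15 held 159 transgenic cells (19.7%, 17.0 to 22.6%) and 177 wildtype cells (15.3%, 13.3 to 17.5%). Cluster 16 held 77 transgenic cells (9.55%, 7.61 to 11.8%) and 156 wildtype cells (13.5%, 11.6 to 15.6%). Cluster 21 held 81 transgenic cells (10.0%, 8.06 to 12.3%) and 97 wildtype cells (8.38%, 6.85 to 10.1%). Genes that define the clusters differed in level between the genotypes, so these shares describe the libraries and are not a comparison of cell states. Clusters 2 and 15 were deep and clusters 16 and 21 shallow. Median UMIs per cell were 9499 in transgenic and 7601 in wildtype cells of cluster 2, and 2159 in transgenic and 1995 in wildtype cells of cluster 16. Cluster 21 had a median of 2023 UMIs in transgenic and 1871 in wildtype cells, and a mitochondrial share of 4.43% in transgenic and 4.70% in wildtype cells.

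**Figure D1:**
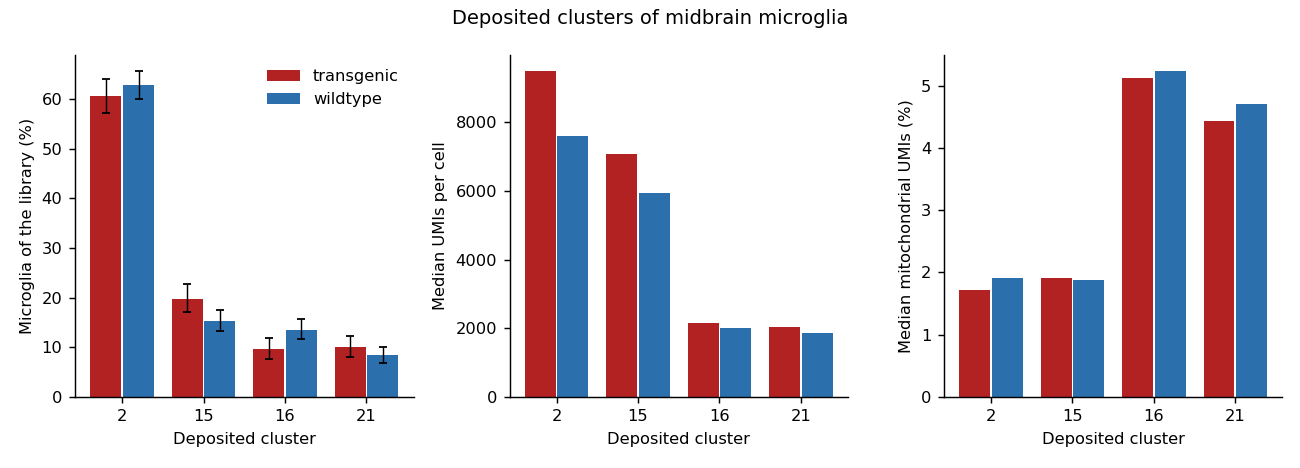
Bars show, for each deposited cluster, its share of the microglia of a library in percent with exact 95% intervals (left), the median UMIs per cell (middle) and the median mitochondrial share in percent (right), with transgenic in red and wildtype in blue. Clusters 2 and 15 hold most cells of both libraries, and clusters 16 and 21 have 1871 to 2159 UMIs per cell and mitochondrial shares of 4.43 to 5.24%.

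The clusters differed widely in immediate early genes and in markers of other cell types. Because the clusters were built from these same cells and genes, the ratios of a cluster over the other microglia are a description and carry no test. Cluster 2 was led by Egr1, an activity-induced zinc finger factor, at 3522 CPM against 554 CPM in the other microglia. Fos, a subunit of the AP-1 factor, had 4744 CPM in cluster 2 and 1042 CPM in the other microglia. Of 30 immediate early genes, 28 were at least 1.5 times higher and 0 lower in cluster 2, where 4.65% of 12249 genes were higher and 12.2% lower. Their median log2 ratio was 1.44. Of 24 NF-kB pathway genes, 18 were higher, among them Nfkbiz at 734 CPM against 145 CPM. Of 23 chemokine and cytokine genes, 12 were higher, and Ccl4, a chemokine that attracts monocytes and T cells, reached 5666 CPM against 1172 CPM.

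Cluster 15 had the opposite profile, with 0 of the 30 immediate early genes higher and 28 lower, beside 5.06% of all genes higher and 6.62% lower. Egr1 stood there at 277 CPM, Atf3, a stress-induced transcription factor, at 279 CPM and Ccl4 at 484 CPM. Homeostatic genes lay slightly above the other microglia, with a median log2 ratio of 0.41 over 33 genes. P2ry12 had 2773 CPM in cluster 15 and 1918 CPM in cluster 2, and Cx3cr1 had 5930 CPM in cluster 15 and 4438 CPM in cluster 2. The leading genes by the naming rule, Cfap97, Dcaf17 and Zbtb37, had log2 ratios over the other microglia of 0.98, 0.96 and 0.95, below the leading ratios of the other clusters.

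Cluster 16 carried RNA of other cell types. Its leading genes included Slc1a2, the main astrocytic glutamate transporter, at 1179 CPM in the cluster and 87.7 CPM in the other microglia. Of the 15 astrocyte markers 14 were higher, and all 10 endothelial markers were, beside 18.6% of all genes higher and 6.49% lower. P2ry12 was still at 1065 CPM in cluster 16, and its top 10 genes hold 3 astrocyte markers and no microglia marker, so several results are also given by cluster. At least 20 astrocyte-marker UMIs were found in 5 of its 77 transgenic cells (6.49%) and 25 of its 156 wildtype cells (16.03%).

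Cluster 21 had the lowest levels of immediate early genes, with 0 of 30 higher and 27 lower and a median log2 ratio of -4.45. In that cluster 6.6% of all genes were higher and 24.1% lower. Fos stood at 121 CPM and Jun, its AP-1 partner, at 259 CPM. Of 39 nuclear genes of oxidative phosphorylation, 32 were higher and 0 lower, and all 13 mitochondrially encoded genes were higher. Ribosomal protein genes took 23.4% of UMIs in transgenic and 19.5% in wildtype cells, against 9.54% in transgenic and 9.16% in wildtype cells of cluster 2. Cd52, a small surface glycoprotein of leukocytes, had 879 CPM in cluster 21 and 281 CPM in the other microglia. Cx3cr1 was low at 1216 CPM.

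**Figure D2:**
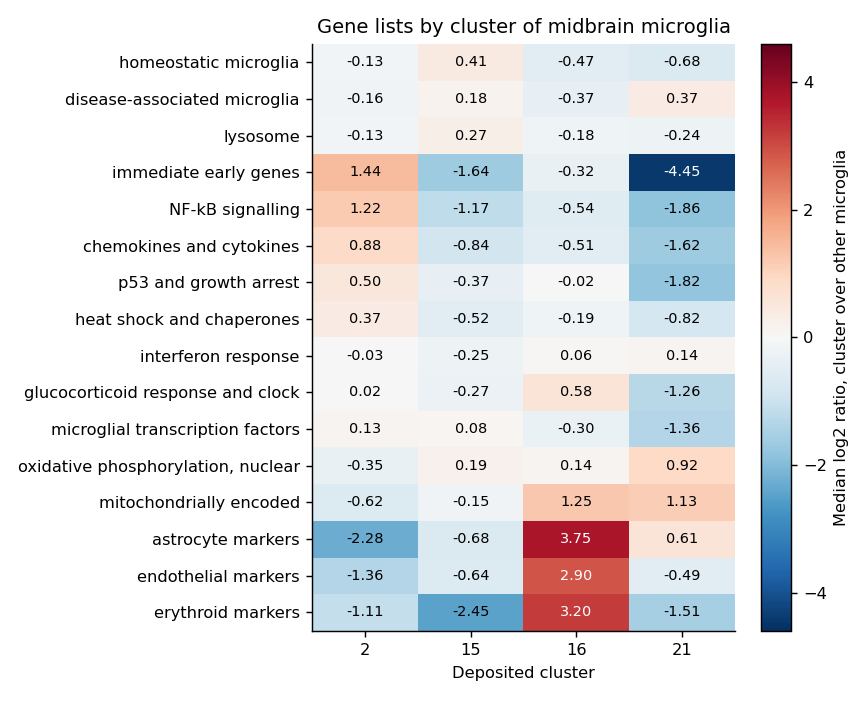
Cells give the median log2 ratio of a cluster's CPM over that of the other midbrain microglia, both libraries together, for each gene list (rows) and deposited cluster (columns), with red for higher and blue for lower. Immediate early genes stand at 1.44 in cluster 2, -1.64 in cluster 15 and -4.45 in cluster 21, and astrocyte markers reach 3.75 in cluster 16.

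Across genotypes, 64 of 6605 genes (0.969%) passed 1.5 times in the direction of transgenic microglia and 164 (2.48%) in the direction of wildtype microglia. The median log2 ratio over all 12249 genes with 20 UMIs was -0.04. Most genes of the lower group were more abundant in other cell types. Of the 164, 135 (82.3%) stood at least 4 times higher in midbrain astrocytes, endothelial cells or CPC-labelled cells than in microglia, against 4 of the 64 higher genes (6.25%) and 8.95% of all 6605 genes. In the low-marker microglia, 66 of 6506 genes (1.01%) were higher and 52 (0.799%) lower. Of the 52, 21 stood at least 4 times higher in the same other cell types, and Ttr, a choroid plexus marker, had 2120 CPM in transgenic and 3417 CPM in wildtype low-marker cells. Of the 164 lower genes, 59 stayed past 1.5 times there and 13 had a ratio above 0, while 58 of the 64 higher genes stayed past. The lower genes include markers used to choose the low-marker cells, such as Slc1a2, Cldn5 and Flt1, whose ratios the selection itself moves. In clusters 2 and 15 alone, 63 of 6549 genes (0.962%) were higher and 75 (1.15%) lower.

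**Figure D3:**
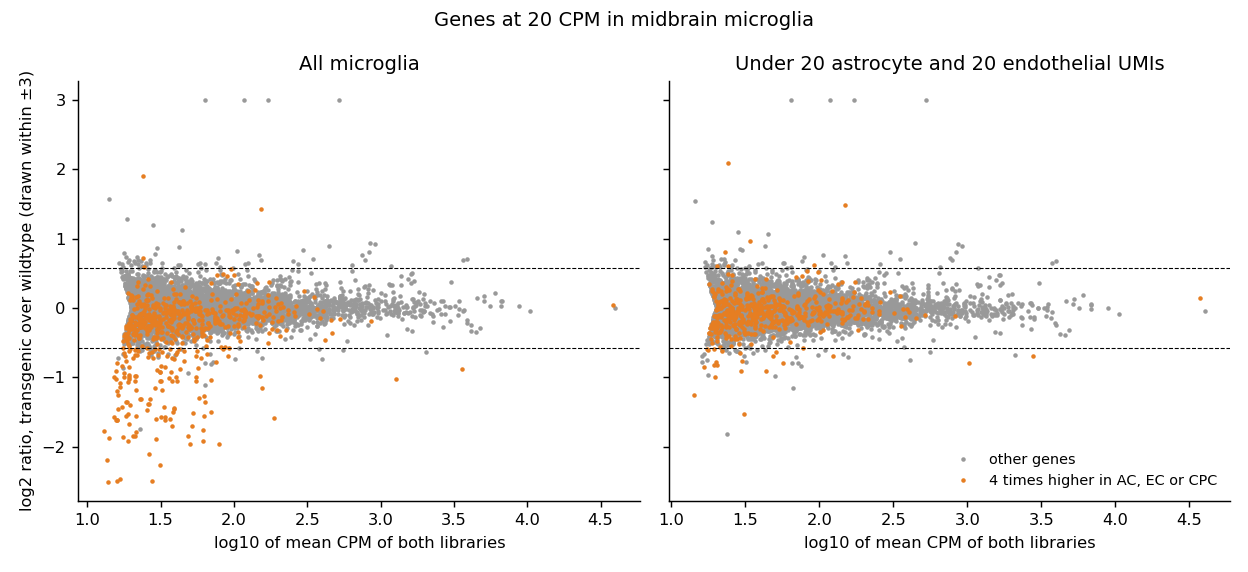
Each point is a gene at 20 CPM in at least 1 library, with the log10 of its mean CPM over both libraries on the x axis and the log2 ratio of transgenic over wildtype on the y axis, drawn within 3 units, for all microglia (left) and for cells with under 20 astrocyte-marker and under 20 endothelial-marker UMIs (right). Dashed lines mark 1.5 times, orange marks genes at least 4 times higher in astrocytes, endothelial cells or CPC-labelled cells, the 4 points on the upper edge lie beyond it, and the orange points below the lower line are far fewer on the right.

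The smallest ratios named by rule belonged to genes of astrocytes and endothelial cells. Gria2, an AMPA receptor subunit, had 8.33 CPM in transgenic and 47.0 CPM in wildtype microglia (-2.50, -2.94 to -2.08), with 1384 CPM in wildtype astrocytes. Ncam1, a neural adhesion molecule, had 4.16 CPM in transgenic and 23.6 CPM in wildtype microglia (-2.50), with 664 CPM in wildtype astrocytes. Apold1, an endothelial early response gene, had 33 UMIs in transgenic and 216 in wildtype microglia (-2.47), and 1 wildtype cell held 53. In low-marker microglia the log2 ratios were -1.25 for Gria2, -1.27 for Ncam1 and -0.72 for Apold1.

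Homeostatic microglial genes differed little between the genotypes. None of 33 was called in either direction, and their median log2 ratio was 0.02, where 5.58% of all genes were called higher and 11.6% lower by the rule for lists. P2ry12 had 1950 CPM in transgenic and 2004 CPM in wildtype microglia (-0.04, -0.07 to -0.01). Tmem119 had 1139 CPM in transgenic and 1124 CPM in wildtype microglia (0.02). Cx3cr1 had 4741 CPM in transgenic and 4284 CPM in wildtype microglia (0.15, 0.12 to 0.17). The smallest ratio of the list belonged to Upk1b (-0.17) and the largest to Sall3 (0.25). The 3 chains of the complement recognition protein C1q were also close, with C1qa at 6959 CPM in transgenic and 6468 CPM in wildtype microglia (0.11).

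Of 20 heat shock and chaperone genes, 8 were higher in transgenic microglia, 1 was lower and 11 were not called, with a median log2 ratio of 0.22. Over all genes 5.58% were called higher and 11.6% lower. Chaperones refold or hold damaged proteins, and HSF1 induces the cytosolic ones through heat shock elements in their promoters. Hspa1b, which encodes an inducible Hsp70, had 222 CPM in transgenic and 82.8 CPM in wildtype microglia, a log2 ratio of 1.43 (1.29 to 1.56). Hspa1a, its neighbour on chromosome 17, had 577 CPM in transgenic and 309 CPM in wildtype microglia (0.90, 0.83 to 0.98). The genes are nearly identical and reads may be split between them, so each ratio alone is uncertain. Their sum was 800 CPM in transgenic and 392 CPM in wildtype microglia (1.03, 0.97 to 1.10).

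The summed Hsp70 pair was higher in clusters 2, 15 and 16 and not in cluster 21. It had 860 CPM in transgenic and 383 CPM in wildtype cells of cluster 2 (1.17, 1.09 to 1.24). Cluster 15 had 537 CPM in transgenic and 299 CPM in wildtype cells (0.84, 0.65 to 1.04). Cluster 21 had 16 UMIs in transgenic and 30 in wildtype cells, with an interval that held 0 (-0.78, -1.76 to 0.14). In low-marker microglia the ratio was 1.07. The signal was concentrated in part of the cells: a Hspa1b UMI was present in 25.7% of transgenic and 20.6% of wildtype microglia, and the top 10% of cells held 86.5% of Hspa1b UMIs in the transgenic and 80.6% in the wildtype library. Endothelial cells of midbrain carried 793 CPM of Hspa1b in the transgenic and 560 CPM in the wildtype library (0.50). Its ratio was 0.52 in border macrophages and -0.09 in midbrain astrocytes. The part of endothelial RNA in the microglial ratio was not tested.

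Hsph1, an Hsp110 nucleotide exchange factor that works with Hsp70, had 39.3 CPM in transgenic and 17.1 CPM in wildtype microglia (1.2, 0.89 to 1.52). It was higher in cluster 2 (1.28), and its ratio in cluster 15 was -0.13. Hsp90aa1, the inducible cytosolic Hsp90, had 776 CPM in transgenic and 504 CPM in wildtype microglia (0.62, 0.56 to 0.68). Dnaja1, an Hsp40 co-chaperone, had 392 CPM in transgenic and 276 CPM in wildtype microglia (0.51). Hspd1, the mitochondrial Hsp60, had 146 CPM in transgenic and 99.9 CPM in wildtype microglia (0.55).

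In the low-marker microglia 9 of the 20 were higher and 1 lower, beside 5.61% of genes higher and 6.43% lower there. The lower one in all microglia was Cryab, a small heat shock protein, at 10.2 CPM in transgenic and 15.8 CPM in wildtype microglia (-0.63). Hsp90ab1 (0.35) and Hspa8 (0.34), the constitutive Hsp90 and Hsc70, made up the 8. The endoplasmic reticulum chaperone Hspa5 had 1306 CPM in transgenic and 1329 CPM in wildtype microglia (-0.03, -0.07 to 0.02).

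The promoters of the 3 chaperones with the largest ratios are shown. They run from 250 bases before to 50 bases after the annotated start and come from RefSeq (GRCm38.p6). Capitals mark the core of a heat shock element, GAANNTTC, which reads the same on both strands. Hspa1b lies at chr17:34959189-34959488, Hspa1a at chr17:34972107-34972406 and Hsph1 at chr5:149636287-149636586, all on the minus strand, and Hsph1 is 1 of 2 entries of that gene.
Hspa1b: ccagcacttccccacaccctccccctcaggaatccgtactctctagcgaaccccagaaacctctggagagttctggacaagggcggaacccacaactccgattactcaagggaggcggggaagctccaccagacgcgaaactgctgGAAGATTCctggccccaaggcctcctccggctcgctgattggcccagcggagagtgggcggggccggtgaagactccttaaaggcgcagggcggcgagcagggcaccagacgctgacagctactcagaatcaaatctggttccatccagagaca
Hspa1a: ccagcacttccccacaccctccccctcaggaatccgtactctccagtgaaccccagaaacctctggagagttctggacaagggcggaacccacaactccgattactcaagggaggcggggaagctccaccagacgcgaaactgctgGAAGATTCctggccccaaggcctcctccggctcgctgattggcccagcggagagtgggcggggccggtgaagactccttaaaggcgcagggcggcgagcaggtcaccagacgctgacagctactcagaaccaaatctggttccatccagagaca
Hsph1: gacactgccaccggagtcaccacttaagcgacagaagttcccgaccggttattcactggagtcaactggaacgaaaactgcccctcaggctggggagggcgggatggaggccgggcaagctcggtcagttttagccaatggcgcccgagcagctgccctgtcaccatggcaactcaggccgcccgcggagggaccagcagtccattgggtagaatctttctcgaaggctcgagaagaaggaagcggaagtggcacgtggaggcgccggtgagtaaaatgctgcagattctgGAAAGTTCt
The Hspa1a and Hspa1b windows are identical at 296 of 300 bases. The motif occurs in 2582 of 32851 promoters of the table (7.86%) and in 9 of the 15 chaperone genes that have an entry (60%). The first share counts promoter entries and the second counts genes, where any matching entry of a gene suffices, so the shares are not alike. Of these 9, Hspa1a, Hspa1b, Hsph1, Dnaja1 and Hspd1 were called higher, and Bag3, Hspb1, Hspb6 and Hspe1 were not called. A match is a description of the letters and not of binding.

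Immediate early genes moved apart from one another. Of 30, 5 were higher in transgenic microglia (Fosb, Klf4, Fos, Klf2 and Dusp1) and 5 lower (Dusp2, Ier3, Fosl2, Rgs1 and Ier5). Over all genes 5.58% were higher and 11.6% lower, and the median log2 ratio of the 30 was -0.10. Fos had 4795 CPM in transgenic and 2947 CPM in wildtype microglia (0.70, 0.68 to 0.73). Fosb, another AP-1 subunit, had 1107 CPM in transgenic and 575 CPM in wildtype microglia (0.94, 0.89 to 1.0). Klf4, a Krüppel-like factor, had 1052 CPM in transgenic and 602 CPM in wildtype microglia (0.81, 0.75 to 0.86). The AP-1 subunits Fos and Fosb stood above 0 while Jun (0.04) and Junb (-0.22) were not called.

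Fos was higher in clusters 2 and 15, with log2 ratios of 0.72 and 0.67. Klf4 was higher in cluster 2 (0.93), with a ratio of -0.02 in cluster 15. After thinning each cell to 3000 UMIs, a Fos UMI occurred in 85.6% of 674 transgenic and 80.6% of 968 wildtype microglia, and without thinning in 84.2% of transgenic and 81.4% of wildtype microglia. Thinned endothelial cells had it in 68.5% of transgenic and 70.6% of wildtype cells. Egr1, the leading gene of cluster 2, had 2668 CPM in transgenic and 2840 CPM in wildtype microglia (-0.09).

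On the lower side, Dusp2, a nuclear MAP kinase phosphatase, had 51.2 CPM in transgenic and 89.2 CPM in wildtype microglia (-0.80, -0.99 to -0.61). Ier3, an early response gene that restrains NF-kB and cell death, had 437 CPM in transgenic and 664 CPM in wildtype microglia (-0.60, -0.67 to -0.54). Cebpb, a transcription factor of inflammatory myeloid genes, had 302 CPM in transgenic and 501 CPM in wildtype microglia (-0.73, -0.81 to -0.65). Its ratio was -0.73 in cluster 2 and -0.75 in cluster 15. Gadd45b, a stress and NF-kB target, had 113 CPM in transgenic and 173 CPM in wildtype microglia (-0.61).

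Among 23 chemokines and cytokines, 2 were higher and 3 lower in transgenic microglia, beside 5.58% of all genes higher and 11.6% lower. The median log2 ratio was 0.01. Ccl3, a chemokine that attracts leukocytes, had 1596 CPM in transgenic and 2483 CPM in wildtype microglia (-0.64, -0.67 to -0.60). It was lower in cluster 2 (-0.59) and in cluster 15 (-0.83). After thinning, 60.2% of transgenic and 69.6% of wildtype microglia had a Ccl3 UMI, against 3.97% of transgenic and 6.34% of wildtype endothelial cells. Without thinning the microglial shares were 66.0% in the transgenic and 73.4% in the wildtype library. Median depth before thinning was 8317.5 UMIs in transgenic and 6749 in wildtype microglia, and 8460 in transgenic and 7221.5 in wildtype endothelial cells.

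Ccl4, encoded next to Ccl3, had 3937 CPM in transgenic and 5001 CPM in wildtype microglia (-0.35, -0.37 to -0.32). Osm, an IL-6 family cytokine, had 53.1 CPM in transgenic and 91.1 CPM in wildtype microglia (-0.78). Ccl12, an MCP-type monocyte chemokine, ran the other way, with 333 CPM in transgenic and 215 CPM in wildtype microglia (0.63, 0.54 to 0.73). Its ratio was 0.47 in cluster 2, -0.47 in cluster 15 and 3.04 in cluster 21, so the pooled direction did not hold in cluster 15. Cxcl10, an interferon-induced chemokine, had 129 CPM in transgenic and 101 CPM in wildtype microglia (0.35), and 104 of the transgenic UMIs came from 1 cell. Without the top cell of each library the ratio was 0.57 for Ccl12, short of 1.5 times, and 0.25 for Cxcl10, short of 1.2 times. Tnf had 393 CPM in transgenic and 390 CPM in wildtype microglia (0.01), and Il1b had 44.7 CPM in transgenic and 39.8 CPM in wildtype microglia (0.17, -0.07 to 0.40).

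Gdf15, a stress-induced cytokine of the TGF-beta family, had 40.4 CPM in transgenic and 87.5 CPM in wildtype microglia (-1.11, -1.33 to -0.91). Its UMIs lay mainly in cluster 2, with 51.9 CPM in transgenic and 109 CPM in wildtype cells (-1.07). Other single genes with large ratios included Creb5, a CREB family factor, with 60.6 CPM in transgenic and 27.8 CPM in wildtype microglia (1.12, 0.88 to 1.37). Tmx4, a thioredoxin-like membrane protein, had 942 CPM in transgenic and 556 CPM in wildtype microglia (0.76). Hist1h2ap, a histone H2A gene, had 54.4 CPM in transgenic and 29.6 CPM in wildtype microglia (0.88). It was also higher in transgenic midbrain astrocytes (1.02), endothelial cells (0.98) and border macrophages (2.19), so its direction was not particular to microglia. In frontal cortex microglia its ratio was 0.35.

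Of 25 clock and glucocorticoid-responsive genes, 16 were lower in transgenic microglia, 2 higher and 7 not called, beside 11.6% of all genes lower and 5.58% higher. Their median log2 ratio was -0.46. The circadian clock is a loop in which CLOCK and BMAL1 switch on Per, Cry, Nr1d and the output factors Dbp, Tef and Hlf through E-boxes, and several of these genes also respond to glucocorticoids. In low-marker microglia 2 of the list were higher and 10 lower, beside 5.61% of all genes higher and 6.43% lower, and the median was -0.29. Astrocytes carried many of these genes at higher levels, with Per3 at 242 CPM in wildtype astrocytes, and astrocyte markers were lower in transgenic microglia too. Their part in the remaining difference was not tested.

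Per1, a core repressor of the clock that glucocorticoids induce, had 86.2 CPM in transgenic and 129 CPM in wildtype microglia (-0.58, -0.73 to -0.43). It was less abundant than that in wildtype astrocytes, at 37.7 CPM, and its ratio was -0.61 in low-marker microglia, -0.49 in cluster 2 and -1.26 in cluster 15. Dbp, a clock output factor, had 14.5 CPM in transgenic and 28.7 CPM in wildtype microglia (-0.99, -1.35 to -0.63), and -0.82 in low-marker microglia. Tef, a related factor, had 30.4 CPM in transgenic and 48.7 CPM in wildtype microglia (-0.68), and -0.60 in low-marker microglia. Ddit4, a stress and glucocorticoid-induced inhibitor of mTORC1, had 20.8 CPM in transgenic and 43.2 CPM in wildtype microglia (-1.05, -1.35 to -0.76). Its ratio was -0.91 in low-marker microglia. These genes were also lower in transgenic endothelial cells of midbrain: Per1 -0.93, Dbp -1.95, Tef -0.91 and Ddit4 -0.83. In midbrain astrocytes the ratios were -0.35 for Per1, -0.47 for Dbp, -0.26 for Tef and -0.22 for Ddit4. Their direction was therefore not particular to microglia.

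Klf9, a glucocorticoid-induced factor, showed the lowest ratio of the list, with 7.71 CPM in transgenic and 23.6 CPM in wildtype microglia (-1.62), and -0.60 in low-marker microglia. The clock activators were not called: Arntl, which encodes BMAL1, had 12 CPM in transgenic and 10.1 CPM in wildtype microglia (0.26, -0.21 to 0.73), and Clock had 50.3 CPM in transgenic and 54.1 CPM in wildtype microglia (-0.10). Bhlhe41, a repressor of the loop and a factor of mature microglia, was higher at 270 CPM in transgenic and 213 CPM in wildtype microglia (0.34). Tsc22d3, a glucocorticoid target, had 263 CPM in transgenic and 269 CPM in wildtype microglia (-0.03).

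The promoters of Per1 and of Ciart, a clock repressor at 10.2 CPM in transgenic and 16.5 CPM in wildtype microglia (-0.69, -1.14 to -0.25), are shown as lower members with an E-box. Capitals mark E-boxes (CACGTG, the same on both strands) in the RefSeq windows (GRCm38.p6) at chr11:69098699-69098998, plus strand, 1 of 2 entries of Per1, and chr3:95882179-95882478, minus strand.
Per1: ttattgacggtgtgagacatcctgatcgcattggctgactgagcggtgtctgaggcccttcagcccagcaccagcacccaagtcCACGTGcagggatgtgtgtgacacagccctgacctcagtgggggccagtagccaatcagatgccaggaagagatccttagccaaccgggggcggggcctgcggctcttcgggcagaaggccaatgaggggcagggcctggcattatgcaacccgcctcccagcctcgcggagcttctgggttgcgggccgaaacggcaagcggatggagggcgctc
Ciart: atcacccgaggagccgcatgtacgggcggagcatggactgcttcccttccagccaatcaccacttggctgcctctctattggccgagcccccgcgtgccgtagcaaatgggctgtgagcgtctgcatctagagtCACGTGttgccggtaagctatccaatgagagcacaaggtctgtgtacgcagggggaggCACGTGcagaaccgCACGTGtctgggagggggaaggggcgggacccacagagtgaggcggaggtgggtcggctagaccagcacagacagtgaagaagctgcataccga
The Ciart window holds 3 E-boxes and the Per1 window 1. The motif occurs in 2349 of 32851 promoters (7.15%) and in 8 of the 23 listed genes that have an entry (34.8%). As for the chaperones, the first share counts entries and the second counts genes with any matching entry. Of these 8, Per1, Ciart and Tef were called lower, Bhlhe41 and Dusp1 higher, and Cry1, Fkbp5 and Sgk1 in neither direction.

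**Figure D4:**
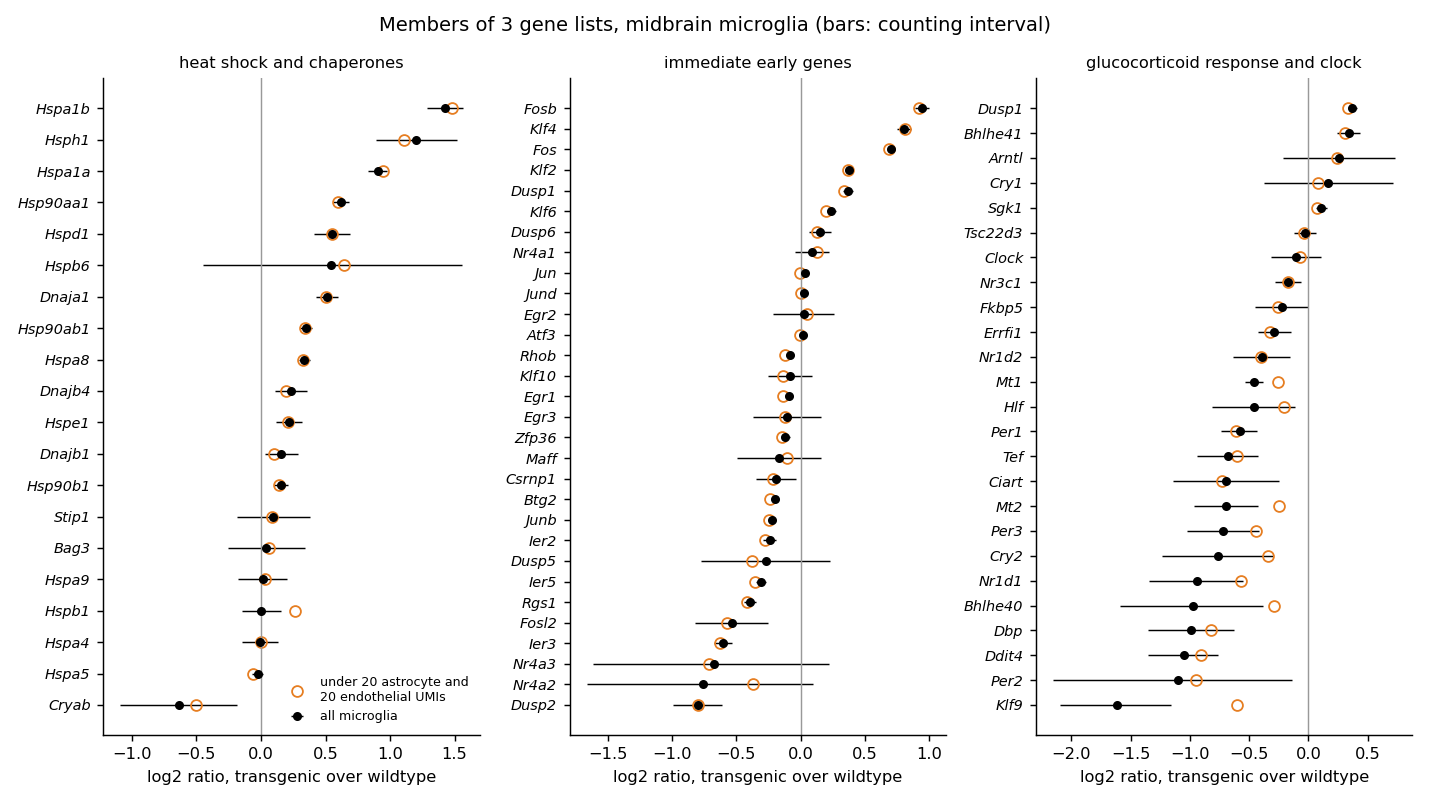
Points give the log2 ratio of transgenic over wildtype midbrain microglia for each member of 3 gene lists, with bars for the 95% counting interval and open orange circles for cells with under 20 astrocyte-marker and under 20 endothelial-marker UMIs. Hspa1b and Hsph1 stand farthest right among chaperones, Fosb, Klf4 and Fos among immediate early genes, and 16 of 25 clock and glucocorticoid genes were called lower, several of them with smaller differences in the low-marker cells.

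Of 36 disease-associated microglial genes, 1 was higher (Lpl) and 7 lower (Apoe, Spp1, Axl, Ank, Fabp5, Ccl3 and Cd74), beside 5.58% of all genes higher and 11.6% lower. Their median log2 ratio was 0.01. Apoe, the main lipid carrier of the brain and the strongest genetic factor in late-onset Alzheimer disease, had 841 CPM in transgenic and 1701 CPM in wildtype microglia (-1.02, -1.06 to -0.97). In low-marker microglia Apoe had 747 CPM in the transgenic and 1298 CPM in the wildtype library (-0.80). By cluster its ratio was -1.25 in cluster 2, -0.59 in cluster 15, -0.42 in cluster 16 and 1.01 in cluster 21. With the 4 clusters weighted alike the Apoe ratio was -0.06, and it was -0.46 by the mean of per-cell CPM.

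Apoe is abundant in astrocytes, with 20579 CPM in the wildtype library, and the astrocyte markers moved the same way in microglia. A few cells held much of it: the top 10% of microglia carried 72.2% of Apoe UMIs in the transgenic and 78.6% in the wildtype library. After thinning, 58.6% of transgenic and 67.4% of wildtype microglia had an Apoe UMI, and before thinning 85.1% of transgenic and 87.0% of wildtype microglia did. The share in endothelial cells was higher, at 89.7% of transgenic and 93.7% of wildtype cells after thinning, so the microglial shares are not read as a difference.

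Lpl, a lipase induced in phagocytic microglia, had 27.1 CPM in transgenic and 17.5 CPM in wildtype microglia (0.63, 0.30 to 0.97). Spp1, the secreted protein osteopontin, had 19 UMIs in transgenic and 88 in wildtype microglia, of which 60 came from 1 wildtype cell. Without the top cell of each library the ratio was -0.48 with an interval from -1.44 to 0.44. Cst7, a lysosomal cystatin, had 10.3 CPM in transgenic and 10.1 CPM in wildtype microglia (0.04), and Itgax, the integrin CD11c, had 5.71 CPM in transgenic and 5.22 CPM in wildtype microglia (0.13). The receptor gene Trem2 had 2181 CPM in transgenic and 2318 CPM in wildtype microglia (-0.09), and its adaptor Tyrobp had 2048 CPM in transgenic and 1939 CPM in wildtype microglia (0.08).

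Of 34 interferon-response genes, 3 were higher (Oas1a, Cxcl10 and Ccl12) and 11 lower in transgenic microglia, beside 5.58% of all genes higher and 11.6% lower. The median log2 ratio was -0.26, whereas the summed level was 1193 CPM in transgenic and 1136 CPM in wildtype microglia (0.07, 0.03 to 0.11). The direction of the sum rests on Ccl12, which differed by more than the sum did, at 333 CPM in transgenic and 215 CPM in wildtype. The top 10% of cells held 76.0% of Ccl12 UMIs in the transgenic and 65.3% in the wildtype library. In low-marker microglia 3 were higher and 9 lower, beside 5.61% of all genes higher and 6.43% lower. Slfn5, an interferon-induced nuclear factor, had 8.64 CPM in transgenic and 23.6 CPM in wildtype microglia (-1.45, -1.91 to -1.01), with 420 CPM in wildtype endothelial cells. Ifit3, an antiviral RNA-binding partner, had 5.4 CPM in transgenic and 11.5 CPM in wildtype microglia (-1.09). Rtp4 had 6.32 CPM in transgenic and 12.3 CPM in wildtype microglia (-0.96), and -1.02 in low-marker microglia. The more abundant Isg15, a ubiquitin-like modifier, had 25.6 CPM in transgenic and 28.7 CPM in wildtype microglia (-0.17, -0.47 to 0.13), and Bst2, which tethers budding virions, had 143 CPM in transgenic and 141 CPM in wildtype microglia (0.01).

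Of 9 MHC class II genes, which present antigen to CD4 T cells, 0 were higher and 4 lower. Over all genes 5.58% were higher and 11.6% lower. Those 4 rested on 1 wildtype cell of cluster 2, which held 49 of the 60 wildtype UMIs of H2-Aa, 39 of 147 of H2-Ab1 and 80 of 379 of Cd74. Without the top cell of each library the ratios were 0.37 for H2-Aa, -0.23 for H2-Ab1, -0.56 for H2-Eb1 and -0.14 for Cd74, and each interval held 0.

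Of 34 cholesterol and lipid genes, 1 was higher and 12 lower, beside 5.58% of all genes higher and 11.6% lower. In low-marker microglia 2 were higher and 6 lower, beside 5.61% of all genes higher and 6.43% lower. Abcg1, a cholesterol exporter with little expression in astrocytes, had 72.0 CPM in transgenic and 90.6 CPM in wildtype microglia (-0.33, -0.50 to -0.16). Of 25 Parkinson disease genes 0 were higher and 2 lower, namely Mapt and Pink1, beside 5.58% of all genes higher and 11.6% lower. In low-marker microglia 1 of 24 was higher (Vps13c) and 1 lower (Pink1), beside 5.61% of all genes higher and 6.43% lower. Pink1, the kinase that marks damaged mitochondria, had 32.5 CPM in transgenic and 43.4 CPM in wildtype microglia (-0.41, -0.67 to -0.16).

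Of 44 lysosomal genes, 1 was higher and 3 lower, with a median of 0.04, beside 5.58% of all genes higher and 11.6% lower. Ctsd, the protease cathepsin D, had 5648 CPM in transgenic and 5506 CPM in wildtype microglia (0.04). Of 11 complement genes, 2 were higher and 1 lower. The higher ones were C5ar1 (0.49) and C5ar2 (0.51), receptors of the C5a fragment, and the lower one was C4b, a complement component, at 22 UMIs in transgenic and 102 in wildtype microglia. C5ar1 had 95.6 CPM in transgenic and 68.2 CPM in wildtype microglia. Of 23 TGF-beta pathway genes 0 were higher and 5 lower, led by Id1 at 12.96 CPM in transgenic and 25.3 CPM in wildtype microglia (-0.97). In low-marker microglia Id1 was at -0.40 and was not called. There 1 of the 23 was higher and 4 were lower, beside 5.61% of all genes higher and 6.43% lower.

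The frontal cortex microglia of the same series, 1445 transgenic and 1912 wildtype cells in separate libraries, gave a second pair of values. No interaction could be tested with 1 library per group. Over 6367 genes at 20 CPM in both regions, 54 (0.848%) were higher and 109 (1.71%) lower in midbrain, and 75 (1.18%) higher and 50 (0.785%) lower in frontal cortex. The regions shared 16 higher genes (29.6% of the midbrain and 21.3% of the frontal cortex ones) and 32 lower genes (29.4% of the midbrain and 64% of the frontal cortex ones). The shared higher genes include the haemoglobin genes Hba-a1, Hba-a2, Hbb-bs and Hbb-bt. The shared lower genes include endothelial markers such as Cldn5, Flt1 and Slco1a4, and the endothelial-marker median was -1.52 in midbrain and -0.68 in frontal cortex. The part of RNA of other cell types in the overlap was not tested. The mice of a group may be shared between the regions, since each library is described as coming from the same group.

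The chaperone pair was higher in frontal cortex as well, at 994 CPM in transgenic and 479 CPM in wildtype microglia (1.05, 1.01 to 1.10). Hsph1 had 39.4 CPM in transgenic and 17.2 CPM in wildtype frontal cortex microglia (1.2), and Hsp90aa1 832 CPM in transgenic and 508 CPM in wildtype (0.71). Fos (0.54), Fosb (0.60) and Mrc2 (0.70) were also above 0 there, and Per1 (-1.02), Dbp (-1.06), Tef (-0.91) and Ddit4 (-2.04) below. Ccl3 was at -0.47.

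Of the other genes, 23 were lower in midbrain and higher in frontal cortex, and 0 the reverse. They include the astrocyte genes Plpp3, Slc1a2 and Gja1, and the astrocyte-marker median was -1.39 in midbrain and 1.21 in frontal cortex. The interferon list had a median of -0.26 in midbrain and 0.95 in frontal cortex, where 33 of 34 members were above 0, against 8 in midbrain. Ifi27l2a had 29.8 CPM in transgenic and 38.0 CPM in wildtype midbrain microglia, and 60.9 CPM in transgenic and 15.3 CPM in wildtype frontal cortex microglia. Apoe was at 827 CPM in transgenic and 587 CPM in wildtype frontal cortex microglia (0.49), and Cebpb at 0.38.

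**Figure D5:**
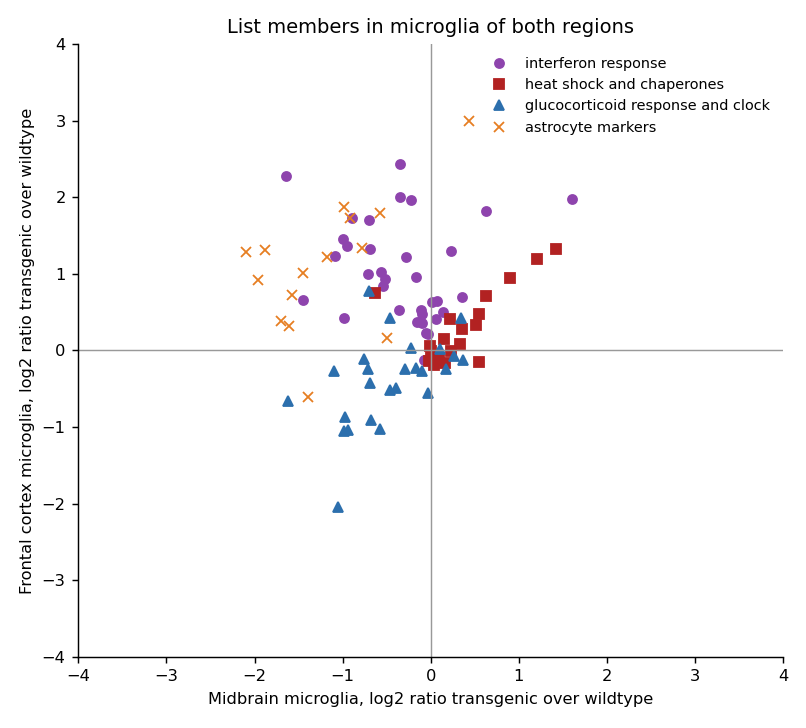
Each point is a list member, with the log2 ratio of transgenic over wildtype in midbrain microglia on the x axis and in frontal cortex microglia on the y axis. Of 20 chaperones 17 lie above 0 in midbrain and 12 in frontal cortex, of 25 clock and glucocorticoid genes 5 lie above 0 in midbrain and 5 in frontal cortex, and 25 of 34 interferon genes and 13 of 15 astrocyte markers at the upper left, below 0 in midbrain and above 0 in frontal cortex.

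Haemoglobin genes stood apart in the size of their ratios. Hba-a1, an alpha globin gene of red blood cells, had 332 CPM in transgenic and 8.88 CPM in wildtype microglia (5.22, 4.87 to 5.59), and 1 transgenic cell held 1202 of its 2150 UMIs. The erythroid markers summed to 1700 CPM in transgenic and 47.4 CPM in wildtype microglia, against 135 CPM in midbrain astrocytes of both libraries together. Haemoglobin was also higher in other transgenic cells. Hba-a1 had log2 ratios of 2.31 in midbrain astrocytes and 3.89 in frontal cortex microglia. Hbb-bs had 5.14 in midbrain microglia, 2.48 in midbrain astrocytes, 2.72 in midbrain endothelial cells and 4.19 in frontal cortex microglia. The direction was therefore not particular to midbrain microglia. The part of haemoglobin RNA in the other differences was not tested.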

How the data were processed

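Single cells of midbrain and frontal cortex were profiled with a 10x 3′ v3 kit, per the labels. Cell Ranger 3.0.0, Seurat 3.1.5 and the mm10 genome are named in the submitters' processing notes. The authors deposited UMI counts per gene and cell, with an annotation giving each cell's library, cell type and cluster, and the mitochondrial percent per cell is in the deposited annotation. No header or label says whether doublets were removed, and no doublet caller was run.

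UMI counts were summed per library over the microglia and scaled to CPM (Python 3.11.15, numpy 2.4.6, scipy 1.17.1, pandas 2.3.3). Ratios carry exact 95% Clopper-Pearson intervals, which cover counting error only, as do all intervals and shares. A ratio against a library at 0 uses a floor of 3 UMIs. TMM factors (edgeR 4.0.16) and DESeq2 1.42.0 size factors were alternatives to the total. The code for the ratios was run on simulated sums that hold counting error only. Those lack the concentration of UMIs in few cells seen here, so the intervals were not checked against it. Cells were thinned to 3000 UMIs for shares, leaving 674 transgenic and 968 wildtype microglia.

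Genes were named by rule (the 12 largest and 12 smallest ratios at 20 CPM and 100 UMIs whose direction held under TMM and per-cell means, without mitochondrial, ribosomal, haemoglobin, predicted, sex-linked and other-cell marker genes, with 6 genes per cluster, 5 each way between regions and 2 to 4 per list). Gdf15, Osm, Dusp2, Per1, Dbp, Tef, Ddit4, Ciart and further list members were named after their values were seen. The members and lists were chosen with earlier results of these data known. Each group is 1 library, so no test between genotypes was made. Some genes are not reported here. Promoter windows come from a RefSeq table.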

Additional observations from a re-analysis of the deposited data

Results flagged for a closer look

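The 9 genes given here belong to the 23 that were lower in midbrain and higher in frontal cortex, where the transgenic over wildtype ratio was past 1.5 times in opposite directions in the microglia. With 1 library per group the differences between the regions were not tested. As midbrain minus frontal cortex differences of log2 ratios, they were -3.19 for Ptprz1, -2.86 for Slc1a2, -2.81 for Plpp3, -2.70 for Luzp2, -2.66 for Cspg5, -2.61 for Gpm6b, -2.29 for Mt3, -2.11 for Aldoc and -2.11 for Slfn5. Ptprz1, a receptor phosphatase, had 21.3 CPM in transgenic and 76.5 CPM in wildtype midbrain microglia, and 30.8 CPM in transgenic and 12.1 CPM in wildtype frontal cortex microglia. All but Slfn5 are abundant in astrocytes, and Slfn5 is abundant in endothelial cells. In the low-marker midbrain microglia the log2 ratios were -0.56 for Ptprz1, 0.09 for Slc1a2, -0.07 for Luzp2 and -1.25 for Slfn5. Slc1a2 is itself among the markers used to choose those cells, so the selection moves its value there.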

How the results depend on the processing

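The counts of genes past 1.5 times changed with several settings. Of genes higher in transgenic microglia (64), thinning to 3000 UMIs gave 141, weighting the clusters alike 205, no minimum CPM 1289 and a fold of 2 gave 10. Of genes lower (164), weighting the clusters alike gave 453, no minimum CPM 2608, a fold of 2 gave 80, and 2 selections chosen after seeing the data gave 75 (clusters 2 and 15 only) and 52 (under 20 UMIs of astrocyte and of endothelial markers). The cause was not tested, apart from the fewer or more genes that a threshold admits. The microglia share of midbrain cells was 20.2% in the transgenic and 15.2% in the wildtype library, a difference of 5.01 percentage points. It was 6.55 points (23.4% in transgenic, 16.8% in wildtype) among cells with under 10% mitochondrial UMIs and at least 500 genes, and 10.1 points (34.9% in transgenic, 24.8% in wildtype) under 5%. Counted over named genes and settings, 381 log2 ratios moved, 1 reversed and 1400 stayed within their limits. Of the list medians, 10 moved and 342 stayed. Genes whose ratio crossed 0 between settings include Cd74 (-0.68 to 0.30), Clu (-0.77 to 0.14) and Hcst (-0.14 to 0.39). The ratio counted as reversed was that of Slc1a2, which changed sign, to 0.0889 (log2), in the low-marker cells. It is among the astrocyte markers used to choose those cells, so the selection itself moves its ratio. Cluster shares and 9 of the 13 alternatives for higher genes stayed within their limits. The alternatives with under 4 UMIs of other cell types (3 transgenic and 1 wildtype cells left) and with Xist and no Y-linked UMI (0 and 0 cells) were not run. No paired analysis was possible because each genotype and region is 1 library. Single genes with few UMIs are limited by counting, and with 1 library per group no result has a replicate check.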
